A study of Mus musculus with 20 samples.

Results

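Type I interferon-stimulated antiviral genes were examined in mouse dendritic cells cultured from bone marrow (BMDCs) and treated with a BET protein inhibitor. The set held 44 genes, chosen by gene symbol as a list of interferon-stimulated effectors without the IRF and STAT factors. Interferon-inducible GTPase families were left out as well, apart from Mx1 and Mx2. All 44 were present among the 24421 genes of the count table, and 42 had enough counts to be tested. Oas2 and Ifi44 were too low for a test.

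Marrow of wild-type C57BL/6 mice was cultured for 8 days in 40 ng/mL GM-CSF, a cytokine that drives marrow cells towards a mixed dendritic and macrophage culture. Cells of 5 mice, lettered A to E, were each divided over 4 conditions for 4 hours, giving 20 libraries of bulk RNA-seq. The DMSO Ova group received solvent and ovalbumin (Ova) alone, the DMSO IC group solvent and immune complexes of ovalbumin with IgG (IC), and the iBET Ova and iBET IC groups received 3.3 µM I-BET151 (iBET) in place of the solvent control. The labels give the solvent control as 5% DMSO and do not state the DMSO content with iBET. If the DMSO content differed, its effect and that of iBET cannot be told apart in any comparison of iBET with DMSO below. The labels describe the inhibitor as added together with the stimulus, whereas the study's methods place inhibitor or solvent shortly before it. The study used mice of both sexes, and the sex of each of the 5 mice and their ages were not given in the sources used here. Libraries held between 16447491 and 29245150 counts. Those of mice A and B stood apart from those of mice C, D and E on the second principal component of all genes, so the main counts below are also given within each of these sets of mice. The summed level of 6 dendritic cell markers lay between 4091 and 8270 CPM (read counts scaled to the size of the library) over all libraries. Itgax, Cd74, H2-Ab1 and Zbtb46 did not pass between iBET and DMSO in a fit without a replicate block for the mouse. With the block, Zbtb46 was lower (log2 fold change -0.25 under either stimulus) and Cd74 higher (0.24 with Ova and 0.23 with IC). Itgax was higher with IC alone (0.15) in that fit, and H2-Ab1 passed with neither stimulus. Ciita and Flt3 fell, with log2 fold changes of -4.99 and -3.66 (Ova) and -5.51 and -2.91 (IC). The summed level of 6 macrophage markers lay between 1298 and 1901 CPM in DMSO Ova and between 891 and 1264 CPM in iBET Ova, and between 1443 and 1991 CPM in DMSO IC and between 940 and 1479 CPM in iBET IC. Of these, Csf1r, C1qa and C1qb fell with Ova and Csf1r and C1qb with IC, and Adgre1, Mertk and Cd68 passed with neither. With the block, C1qa (log2 fold change -0.40) and Cd68 (-0.26) were also lower with IC. Adgre1 was lower with Ova in that fit (-0.17), and Mertk passed with neither. The part of these markers in the differences below was not tested. Of 5 markers of plasmacytoid dendritic cells, the cells best known for producing type I interferon, the defining marker Siglech was at 0 in every library, and their summed level lay between 19.5 and 43.1 CPM. Tcf4, also on that list, fell with iBET (log2 fold changes of -0.84 with Ova and -0.87 with IC). Klk1 (0.81 and -0.24) and Cox6a2 (-0.17 and -0.008) were tested as well and did not pass without the block. Cox6a2 passed with the block under Ova alone, and Klk1 under neither stimulus. In bulk RNA, fewer cells of a type and less RNA per cell cannot be told apart.

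Type I interferons bind the receptor formed by IFNAR1 and IFNAR2, whose kinases JAK1 and TYK2 pass the signal on to transcription factors. A complex that holds STAT2 and IRF9 binds the interferon-stimulated response element (ISRE), a pair of GAAA units in the promoters of antiviral genes. Phagocytes keep a basal level of many such genes without infection, and BET proteins, which read acetylated histones, take part in their transcription.

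To show the sequence shared by part of the set, promoter windows from 250 bases before to 50 bases after each start were taken from RefSeq (GRCm38.p6). Windows were found for 34 of the 44 genes. Mx1, Mx2, Oas2, Usp18, Dhx58, Zbp1, Rtp4, Parp9, Parp14 and Tor3a were not matched. The ISRE core GAAANNGAAA, searched on both strands, was found in the windows of 15 of these 34 genes (44.1%), against 3.99% of the 27025 genes with a window. The stretches upstream of 8 of them are shown 5′ to 3′ on the strand of the gene, with the matches in capitals. A match can stand on either strand, so that some read as TTTC units.
Ifit1 (chr19:34640777-34640821, plus strand): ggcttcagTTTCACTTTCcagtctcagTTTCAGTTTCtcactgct
Ifit3 (chr19:34583365-34583424, plus strand): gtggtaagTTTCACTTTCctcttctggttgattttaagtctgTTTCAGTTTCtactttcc
Rsad2 (chr12:26456555-26456580, minus strand): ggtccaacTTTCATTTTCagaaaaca
Isg15 (chr4:156200867-156200904, minus strand): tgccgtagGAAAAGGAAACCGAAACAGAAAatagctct
Oas3 (chr5:120777717-120777742, minus strand): agggaggaGAAAACGAAAgtgaaggg
Oas1a (chr5:120907526-120907553, minus strand): cttctcggGAAATGGAAACTGAAAatct
Ifitm2 (chr7:140955990-140956015, minus strand): accaacagGAAAAGGAAAttgctaga
Bst2 (chr8:71537579-71537610, minus strand): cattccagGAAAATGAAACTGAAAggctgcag
Ifih1, Ddx58, Ifitm3, Trim30a, Eif2ak2, Slfn5 and Slfn8 held a match as well. The core of the gamma-activated site, TTCNNNGAA, was found in 8 of the 34 windows (23.5%), against 9.55% of all genes, and Oas1a, Ifitm3, Bst2 and Eif2ak2 held both. Neither core was set against binding data, and a match describes letters, not a site in use. The median log2 fold change with Ova was -0.893 over the 15 tested genes with the ISRE core and -0.947 over the 18 tested genes without it, and with IC it was -0.992 and -0.898. Over the 8 tested genes with the core of the gamma-activated site the median was -0.311 with Ova and -0.0777 with IC, and over the 25 tested genes without it -1.34 and -1.24.

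To ask whether iBET altered the basal antiviral programme, iBET Ova was compared with DMSO Ova. With iBET, 30 of the 42 tested genes were lower and 1, Ifi35, was higher (edgeR, adjusted p under 0.05), where 28.9% of all 12465 genes tested were lower and 27.7% higher. A fall of at least 2-fold was found for 21 of the 42, against 10.0% of all genes. The largest falls were those of Rtp4 (8.66-fold), Ifit3 (8.28-fold) and Oasl1 (7.13-fold). The median log2 fold change of the 42 was -0.979, against -0.00287 over all genes. TMM scaling holds the bulk of genes near 0, so these fold changes are relative to the other genes. With library size in place of TMM scaling the median over all genes was -0.0552, with 3014 genes called higher and 4005 lower. In mice A and B alone, on 2 libraries a group here and below, 26 were lower and 4 higher (background 22.5% and 21.4%). In mice C, D and E alone 29 were lower and 2 higher (27.8% and 30.8%). With IC in place of Ova the counts were close, with 29 lower and 1, Trim25, higher (background 29.0% and 27.1%), 21 of them at least 2-fold lower (background 9.68%) and a median of -1.02. In mice A and B alone, 28 were lower and 1 higher with IC (21.5% and 20.4%), and in mice C, D and E alone 27 were lower and 3 higher (28.8% and 28.6%). In a fit with a replicate block for the mouse, 32 were lower and 4 higher with Ova (35.2% and 33.5% of all genes), and 30 were lower and 3 higher with IC (35.4% and 32.6%). Wherever an adjusted p is given with its range over alternatives, the range covers every fit that was run, including DESeq2, limma and the fits in mice A and B or C, D and E alone. The 2 comparisons share no library, but their libraries come from the same 5 mice.

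**Figure D1:**
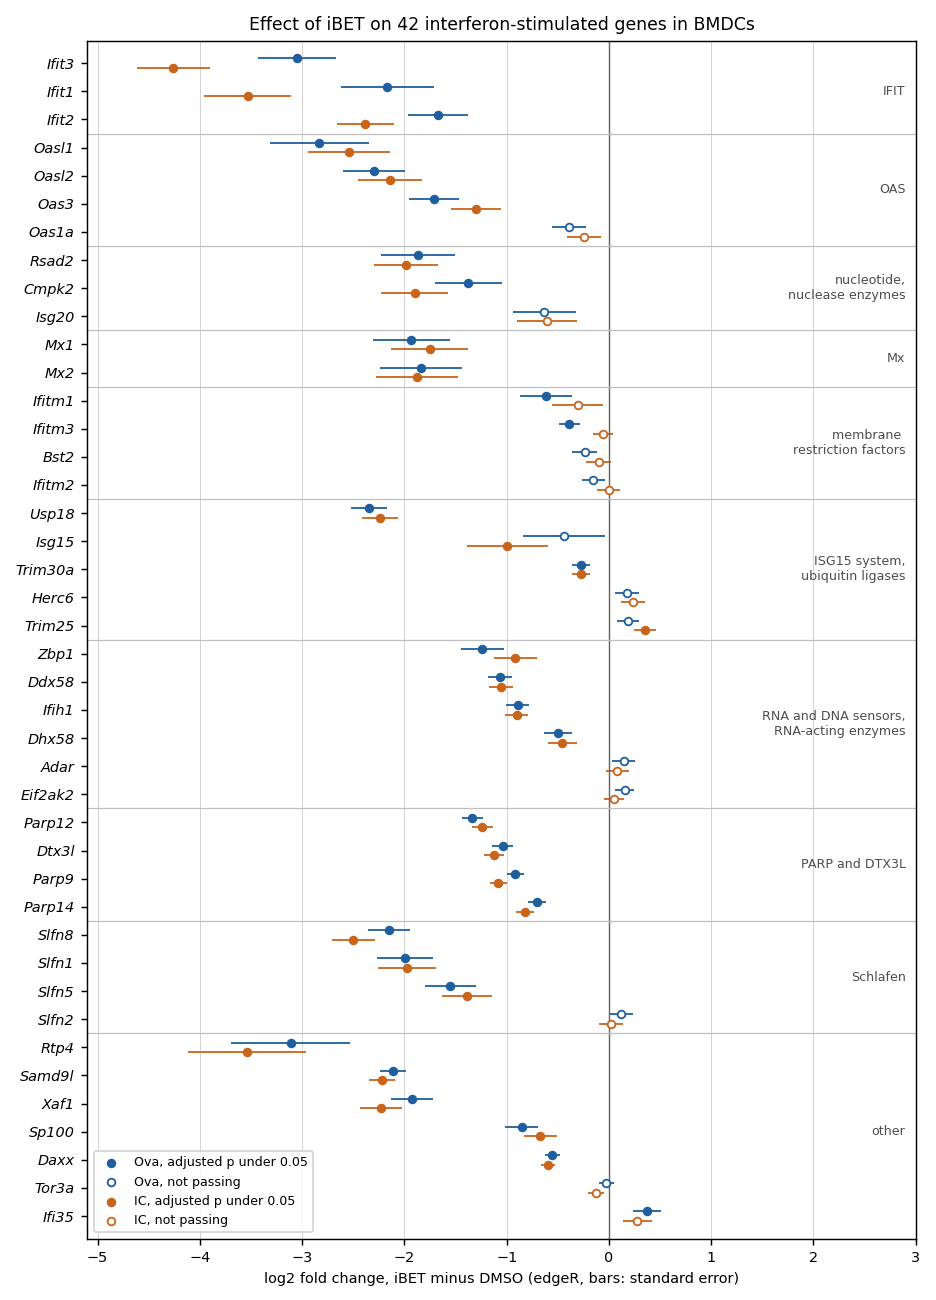
Log2 fold change of each tested gene between iBET and DMSO (horizontal axis), with Ova in blue and with IC in orange, grouped by role. Points are edgeR estimates, bars their standard errors, and filled points passed an adjusted p under 0.05; the filled points lie left of 0 save Ifi35 with Ova and Trim25 with IC, and Adar, Eif2ak2, Slfn2 and Tor3a lie near 0.

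The IFIT proteins bind viral RNA and block its translation. Ifit1 lies on chromosome 19 from 34640871 to 34650009, and Ifit2 and Ifit3 lie beside it. In mice A to E, Ifit1 had 1.47, 0.534, 0.471, 1.61 and 1.33 CPM in DMSO Ova, and 0.444, 0.0542, 0.292, 0.225 and 0.167 CPM in iBET Ova. With IC the values were 2.92, 3.4, 5.32, 2.46 and 2.15 CPM with DMSO and 0.444, 0.151, 0.207, 0.382 and 0.167 CPM with iBET. Every DMSO library was above every iBET library of the same stimulus. For Ifit1 the log2 fold change with Ova was -2.17 (standard error, SE, 0.453, adjusted p = 0.000411 in edgeR) and -3.53 with IC (SE 0.422, adjusted p = 6.49e-07 in edgeR). In mice A and B alone the call with Ova ended (log2 fold change -1.94, adjusted p = 0.0576 in edgeR, from 8.82e-06 to 0.0576 over its alternatives). The iBET libraries held between 1 and 12 reads of Ifit1, so the size of the fall is known only roughly.

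Ifit3 was lower still. It had 0.906, 0.415, 0.565, 0.981 and 1.18 CPM in DMSO Ova, and 0.0808, 0.0542, 0.117, 0.135 and 0.0837 CPM in iBET Ova. In DMSO IC it had 1.64, 2.5, 2.38, 1.54 and 1.06 CPM, and in iBET IC 0.074, 0.114, 0.103, 0.0477 and 0.111 CPM. The groups did not overlap, and the iBET libraries held 1 to 3 reads each. The log2 fold change of Ifit3 was -3.05 with Ova (SE 0.378, adjusted p = 1.08e-06 in edgeR) and -4.26 with IC (SE 0.356, adjusted p = 4.71e-09 in edgeR), the largest fall among the tested genes with IC. Ifit2 had 3.13, 1.72, 1.93, 2.87 and 2.1 CPM in DMSO Ova, and 0.969, 0.542, 0.758, 0.991 and 0.418 CPM in iBET Ova. In DMSO IC it had 4.88, 5.08, 9.57, 4.58 and 3.37 CPM, and in iBET IC 0.962, 0.871, 0.88, 1.38 and 1.17 CPM. Again no library of one treatment reached the range of the other, and the log2 fold changes of Ifit2 were -1.68 with Ova and -2.38 with IC (edgeR adjusted p = 6.84e-05 and 4.53e-07).

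**Figure D2:**
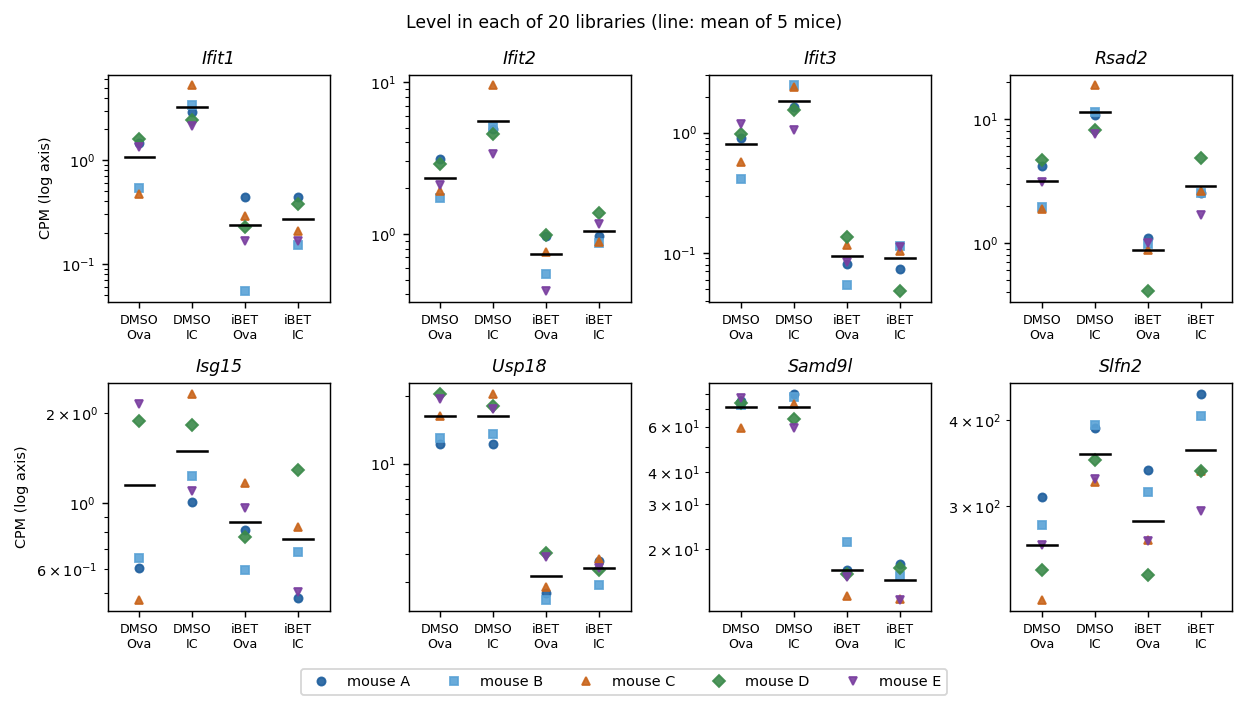
CPM on a log axis in each of the 20 libraries for 8 genes, with the 4 groups on the horizontal axis, a symbol for each mouse and a line at the mean of 5 mice. The 3 IFIT genes, Rsad2, Usp18 and Samd9l sit lower in both iBET groups than in the DMSO groups of the same stimulus, the 4 groups of Isg15 overlap, and Slfn2 follows the stimulus rather than the inhibitor.

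The OAS enzymes make oligoadenylates that activate RNase L, an RNA-degrading enzyme, and Oasl1 and Oasl2 are OAS-like relatives. Oasl1, on chromosome 5 from 114923240 to 114937915, had 0.679, 0.534, 0.895, 0.911 and 0.462 CPM in DMSO Ova and 0.0404, 0.163, 0.0583, 0.045 and 0.167 CPM in iBET Ova. The IC values were 1.38, 0.953, 2.24, 0.749 and 0.934 CPM with DMSO and 0.37, 0.265, 0.103, 0.191 and 0.0556 CPM with iBET. Its groups did not overlap under either stimulus, on 1 to 10 reads in each iBET library. Its log2 fold change was -2.83 with Ova (SE 0.485, adjusted p = 5.28e-05 in edgeR) and -2.54 with IC (SE 0.401, adjusted p = 2.08e-05 in edgeR). Oasl2 fell under either stimulus, with log2 fold changes of -2.30 (Ova) and -2.14 (IC), and so did Oas3, with -1.71 and -1.30. Oas1a behaved differently. It had 33.4 ± 7.13 CPM in DMSO Ova, 25.5 ± 6.1 CPM in iBET Ova, 30.2 ± 4.39 CPM in DMSO IC and 25.4 ± 4.27 CPM in iBET IC (SD, n = 5 each), and the groups overlapped. Its log2 fold change of -0.39 with Ova passed with the replicate block and not in the fit without it (edgeR adjusted p = 0.0535 without and 0.00971 with the block, from 0.00604 to 0.251 over its alternatives), and that of -0.24 with IC passed in neither fit. Oas2 had 57 reads over the 5 libraries in DMSO Ova, 28 in DMSO IC, 13 in iBET Ova and 7 in iBET IC, and was not tested.

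Rsad2 encodes viperin, which makes a chain-terminating nucleotide, and lies on chromosome 12 from 26442746 to 26456452, next to Cmpk2, a mitochondrial nucleotide kinase. With Ova, Rsad2 had 4.15, 1.96, 1.88, 4.69 and 3.08 CPM with DMSO and 1.09, 0.976, 0.875, 0.405 and 1 CPM with iBET. Under IC the levels were 10.7, 11.4, 18.8, 8.12 and 7.55 CPM with DMSO and 2.52, 2.54, 2.64, 4.86 and 1.67 CPM with iBET. No iBET library reached the DMSO libraries of its stimulus, although the iBET IC libraries covered the range of the DMSO Ova libraries. The log2 fold change of Rsad2 was -1.87 with Ova (SE 0.358, adjusted p = 0.000177 in edgeR) and -1.99 with IC (SE 0.31, adjusted p = 1.82e-05 in edgeR). Cmpk2 fell as well, with log2 fold changes of -1.37 (Ova) and -1.90 (IC). Within mice A and B alone the fall of Cmpk2 with Ova did not pass (log2 fold change -0.56, edgeR adjusted p = 0.345, from 4.37e-05 to 0.345 over its alternatives). Isg20, an RNA exonuclease, had log2 fold changes of -0.63 (Ova) and -0.61 (IC) and did not pass (edgeR adjusted p = 0.0899 and 0.0884).

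The Mx proteins are dynamin-like GTPases that trap viral nucleoproteins. Mx1, on chromosome 16 from 97447035 to 97462907, had 52.9 ± 25.6 CPM in DMSO Ova and 13.9 ± 5.91 CPM in iBET Ova (SD, n = 5 each). Much of that spread lay between mice, since mice A and B had 24.5 and 26.4 CPM in DMSO Ova while mice C, D and E had 79.9, 66.2 and 67.4 CPM. Each mouse was lower with iBET. The log2 fold changes were -1.93 (Ova) and -1.75 (IC) for Mx1, and -1.84 and -1.88 for Mx2, which GENCODE M21 annotates as a polymorphic pseudogene. In mice A and B alone the fall of Mx2 with Ova did not pass (log2 fold change -0.88, adjusted p = 0.0764 in edgeR, from 1.95e-10 to 0.0764 over its alternatives).

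ISG15 is a ubiquitin-like modifier, USP18 removes it from proteins and dampens the interferon receptor, and HERC6 attaches it in the mouse. Isg15 itself was low. In mice A to E it had 0.604, 0.652, 0.471, 1.89 and 2.15 CPM in DMSO Ova and 0.808, 0.596, 1.17, 0.766 and 0.962 CPM in iBET Ova. Its IC libraries held 1.01, 1.23, 2.33, 1.83 and 1.1 CPM with DMSO and 0.481, 0.682, 0.828, 1.29 and 0.501 CPM with iBET. The groups overlapped under either stimulus, and with Ova 3 of 5 mice were lower with iBET. Isg15 did not pass with Ova (log2 fold change -0.44, SE 0.401, edgeR adjusted p = 0.369) and passed with IC (log2 fold change -0.99, SE 0.399, edgeR adjusted p = 0.0403), where leaving out mouse A, B, C or E, keeping all genes without a filter, or taking either set of mice alone ended the call (adjusted p from 0.013 to 0.126 over all alternatives, the highest without mouse C). Usp18 was more abundant than Isg15 and fell under either stimulus. It had 16.2 ± 3.67 CPM in DMSO Ova, 3.18 ± 0.702 CPM in iBET Ova, 16.3 ± 3.37 CPM in DMSO IC and 3.45 ± 0.339 CPM in iBET IC (SD, n = 5 each), with log2 fold changes of -2.35 (SE 0.179, adjusted p = 1.43e-09 in edgeR) and -2.24 (SE 0.177, adjusted p = 2.14e-09 in edgeR).

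Trim25 and Herc6 did not follow Usp18. Trim25, which modifies the sensor RIG-I, lies on chromosome 11 from 88999376 to 89020293. It had 87, 135, 113, 132 and 114 CPM in DMSO Ova and 112, 139, 132, 154 and 124 CPM in iBET Ova. In the IC groups it had 129, 138, 128, 142 and 144 CPM with DMSO and 141, 171, 177, 195 and 189 CPM with iBET. Each mouse was higher with iBET although the groups overlapped. With IC, Trim25 rose by a log2 fold change of 0.36 (SE 0.109, adjusted p = 0.00916 in edgeR), a call that ended without mouse C and in mice A and B alone (edgeR adjusted p = 0.0504 without mouse C, from 1.44e-06 to 0.354 over its alternatives). With Ova its log2 fold change of 0.19 passed with the replicate block and not in the fit without it (edgeR adjusted p = 0.0135, from 0.00964 to 0.491 over its alternatives). Herc6 likewise had log2 fold changes of 0.18 and 0.24 that passed with the block and not in the fit without it (edgeR adjusted p = 0.0189 with Ova, from 0.00419 to 0.447 over its alternatives, and 0.00481 with IC, from 0.00175 to 0.248). Exons of Herc6 share 1269 bases (13.7% of their length) with an annotated same-strand gene that is not in the count table. Trim30a, another tripartite motif protein, fell by 0.27 under either stimulus on the log2 scale, and its call with Ova ended without mouse D or E (edgeR adjusted p = 0.0821 and 0.0876, from 0.00329 to 0.48 over its alternatives) and in mice A and B alone, where its log2 fold change was -0.0931. With IC the call of Trim30a ended in mice C, D and E alone (edgeR adjusted p = 0.108).

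The membrane restriction factors were among the most abundant genes of the set. Scaled to exon length, Ifitm3 had 64.1, Ifitm2 63.1, Bst2 44.1 and Ifitm1 32.9 RPKM (CPM divided by exon length) in DMSO Ova, below Slfn2 at 158 RPKM. IFITM proteins hinder fusion of viral and host membranes, and BST2 tethers budding virions. Ifitm3 lies on chromosome 7 from 141009586 to 141010770. It had 36, 51.8, 39.4, 46.6 and 43.7 CPM in DMSO Ova and 29.6, 33.5, 34.2, 32.5 and 36.6 CPM in iBET Ova. The IC values were 36.6, 48.7, 44.6, 51 and 50.8 CPM with DMSO and 43.1, 48.7, 42.1, 47.6 and 41.3 CPM with iBET. Each mouse was lower in iBET Ova, and with IC the ranges lay over each other. Ifitm3 fell with Ova by 0.39 on the log2 scale (SE 0.099, adjusted p = 0.00249 in edgeR) and had a log2 fold change of -0.06 with IC (edgeR adjusted p = 0.646). The call with Ova ended in mice A and B alone (edgeR adjusted p = 0.0661, from 1.73e-06 to 0.0661 over its alternatives). Ifitm1 fell by 0.61 with Ova on the log2 scale (edgeR adjusted p = 0.0448), and without mouse B, C, D or E, or without the filter on low counts, this call ended (adjusted p from 3.08e-08 to 0.173 over its alternatives, the highest without mouse B). With IC Ifitm1 had a log2 fold change of -0.31 that passed with the replicate block and not in the fit without it (edgeR adjusted p = 0.0223, from 0.0219 to 0.646 over its alternatives). Bst2 with Ova passed with the block and not in the fit without it (log2 fold change -0.24, edgeR adjusted p = 0.0308, from 0.0174 to 0.5 over its alternatives), and its log2 fold change with IC was -0.10. Ifitm2 did not pass under either stimulus, and in mice A and B alone the Ova comparison passed at a log2 fold change of -0.40 (edgeR adjusted p = 0.0232, from 0.0232 to 0.95 over its alternatives). Its exons share 268 bases (40.9% of their length) with those of an annotated gene on the same strand that is not in the count table, so its level is uncertain.

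Ddx58 encodes RIG-I and Ifih1 MDA5, the cytoplasmic sensors of viral RNA, Dhx58 their regulator LGP2, and Zbp1 a sensor of Z-form nucleic acid. Ddx58, on chromosome 4 from 40203773 to 40239828, had 34.8, 28.8, 29.1, 33 and 36.2 CPM in DMSO Ova and 17.5, 17.2, 14, 13.7 and 14.9 CPM in iBET Ova. Under IC the levels were 28.7, 25.6, 22.9, 19.5 and 19.6 CPM with DMSO and 13.3, 11.6, 9.21, 11.3 and 10.4 CPM with iBET. The groups stood clear of each other. Ddx58 fell by 1.07 with Ova (SE 0.117, adjusted p = 2.19e-07 in edgeR) on the log2 scale and fell by 1.05 with IC (SE 0.119, adjusted p = 2.96e-07 in edgeR). Ifih1 and Zbp1 fell too, with log2 fold changes of -0.89 and -1.24 under Ova and -0.90 and -0.92 under IC. Dhx58 had 7.85, 8.18, 5.84, 10.6 and 8.77 CPM in DMSO Ova, 4.97, 5.2, 5.13, 6.48 and 7.45 CPM in iBET Ova, 6.1, 6.04, 6.53, 5.54 and 5.68 CPM in DMSO IC, and 4.33, 3.79, 4.86, 4.44 and 4.39 CPM in iBET IC. Its ranges overlapped with Ova and not with IC. Dhx58 fell under both, with log2 fold changes of -0.50 (Ova) and -0.46 (IC) (edgeR adjusted p = 0.00428 and 0.00931), and the call with IC ended without mouse B (edgeR adjusted p = 0.0693, from 0.00198 to 0.162 over its alternatives). In mice C, D and E alone neither call held (edgeR adjusted p = 0.125 with Ova, from 0.00128 to 0.125 over its alternatives, and 0.162 with IC). The RNA-binding kinase PKR (Eif2ak2) and the RNA-editing enzyme Adar did not pass. Eif2ak2 had 33.7 ± 2.85 CPM in DMSO Ova and 37.5 ± 5.08 CPM in iBET Ova, and Adar 89.1 ± 17 and 98.4 ± 6.28 CPM (SD, n = 5 each). With the block the log2 fold change of 0.14 of Adar with Ova passed (edgeR adjusted p = 0.0251, from 0.00832 to 0.581 over its alternatives). Exons of Adar share 1365 bases with Chrnb2 on the opposite strand, and the strand setting of the counting is not given in the sources used here.

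PARP9 and DTX3L form a complex of an ADP-ribosyltransferase family member with a ubiquitin ligase, and PARP12 and PARP14 are ADP-ribosyltransferases. All 4 genes fell under either stimulus. With Ova the log2 fold changes ran from -0.70 for Parp14 to -1.34 for Parp12, with Parp9 at -0.92 and Dtx3l at -1.04. Parp14 went from 98 ± 7.72 to 60.3 ± 7.36 CPM with Ova (SD, n = 5 each). With IC the log2 fold change was -0.82 for Parp14, -1.08 for Parp9, -1.12 for Dtx3l and -1.24 for Parp12. The DMSO and iBET ranges of each gene were separate, and the edgeR adjusted p of these 8 results lay between 1.37e-09 (Parp12, Ova) and 1.17e-06 (Parp14, Ova). Parp9 and Dtx3l start head to head on chromosome 16 and share 458 exonic bases on opposite strands, so some reads may be shared.

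The Schlafen genes, which regulate growth and RNA of immune cells, were divided. Slfn1, Slfn5 and Slfn8 fell, each in 5 of 5 mice, with log2 fold changes of -2.0, -1.55 and -2.15 under Ova and -1.97, -1.39 and -2.50 under IC. Slfn2 had 263 ± 34.9 CPM in DMSO Ova, 285 ± 40.7 CPM in iBET Ova, 357 ± 33 CPM in DMSO IC and 362 ± 57.6 CPM in iBET IC (SD, n = 5 each). Its log2 fold changes with iBET were 0.12 and 0.02 (edgeR adjusted p = 0.403 and 0.895). The 4 genes lie on chromosome 11 beside paralogs such as Slfn3, Slfn4 and Slfn9, and how reads that match several of them were counted is not given in the sources used here.

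Among the remaining genes, Rtp4, a receptor transport protein that restricts flaviviruses, had the largest fall with Ova. It lies on chromosome 16 from 23520291 to 23614222. Its exons share 296 bases (13.9% of their length) with an annotated same-strand gene that is not in the count table. Rtp4 had 1.51, 0.415, 0.424, 1.44 and 2.41 CPM in DMSO Ova and 0.121, 0.163, 0, 0.135 and 0.251 CPM in iBET Ova. Its IC libraries held 2.54, 1.18, 1.59, 1.25 and 1.18 CPM with DMSO and 0.148, 0, 0.103, 0.238 and 0.167 CPM with iBET. The ranges were separate, on at most 6 reads in each iBET library, and a count of 0 allows a level of up to 3 reads, or 0.103 to 0.182 CPM over the libraries. The log2 fold change of Rtp4 was -3.11 with Ova (SE 0.579, adjusted p = 0.000128 in edgeR) and -3.54 with IC (SE 0.578, adjusted p = 3.09e-05 in edgeR). Samd9l, which restricts translation, fell with much higher counts, from 71.7 ± 7.15 to 16.6 ± 2.95 CPM with Ova and from 71.2 ± 9.24 to 15.2 ± 2.27 CPM with IC (SD, n = 5 each). Its log2 fold changes were -2.11 and -2.22 (SE 0.126 each, edgeR adjusted p = 4.57e-11 and 2.22e-11), the smallest adjusted p of the set. Xaf1, a partner of the apoptosis inhibitor XIAP, fell with log2 fold changes of -1.92 and -2.23. Sp100 and Daxx, proteins of nuclear bodies, fell with log2 fold changes of -0.85 and -0.55 under Ova and -0.67 and -0.59 under IC.

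Ifi35, on chromosome 11 from 101448407 to 101458698, moved the other way. It had 21.6, 17.4, 28.1, 28.9 and 29.2 CPM in DMSO Ova and 33.2, 26.8, 35.6, 30.7 and 35.9 CPM in iBET Ova. In the IC groups it had 16.8, 16.7, 23.6, 18 and 21.9 CPM with DMSO and 20.1, 20.6, 25, 24.7 and 27.3 CPM with iBET. Each mouse was higher with iBET, with overlapping ranges. Exons of Ifi35 share 290 bases (16.8% of their length) with an opposite-strand gene that is not in the count table. The strand setting of the counting is not given in the sources used here. Ifi35 rose by 0.37 with Ova (SE 0.139, adjusted p = 0.0276 in edgeR), a call that ended with library size in place of TMM scaling (edgeR adjusted p = 0.0768) and without mouse A (edgeR adjusted p = 0.103, from 6.63e-06 to 0.103 over its alternatives), and its log2 fold change of 0.28 with IC passed with the replicate block and not in the fit without it (edgeR adjusted p = 0.004, from 0.00148 to 0.272 over its alternatives). Tor3a, a torsin ATPase, had log2 fold changes of -0.03 and -0.13 and passed with neither stimulus. Ifi44 had 24 reads in DMSO Ova, 32 in DMSO IC, 13 in iBET Ova and 17 in iBET IC over the 5 libraries of each, and was not tested.

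To ask whether IC altered the same genes, IC was compared with Ova, first with DMSO. Of the set, 6 of 42 were higher and 2 lower with IC (edgeR, adjusted p under 0.05), where 9.59% of all genes tested were higher and 10.7% lower. The share of the set that passed was thus close to that of all genes. The 6 were Rsad2, Ifit1, Ifit2, Ifit3, Tor3a and Slfn2, and the 2 were Ddx58 and Dhx58. In mice A and B alone 1, Rsad2, was higher and 0 lower, on 2 libraries a group (background 2.21% and 1.79%), and in mice C, D and E alone 6 were higher and 5 lower (14.8% and 12.4%). Without mouse D 5 were called in all, without mouse C 3 were higher, and without mouse D or E 0 were lower. With the replicate block 8 were higher and 9 lower (18.3% and 19.8% of all genes). With library size in place of TMM scaling, 6 were higher and 7 lower (4.67% and 20.8%), on a scale where the median log2 fold change of all genes moved from -0.0237 to -0.131 and the genes called in all from 1196 higher and 1335 lower to 582 and 2593.

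With DMSO, each mouse had more Rsad2, Ifit1 and Ifit2 with IC than with Ova, by the values given above, and the ranges of the 5 libraries were separate for each of these genes. Rsad2 rose by a log2 fold change of 1.82 (SE 0.306, adjusted p = 0.00039 in edgeR), Ifit1 by 1.55 (SE 0.358, adjusted p = 0.00483 in edgeR) and Ifit2 by 1.21 (SE 0.257, adjusted p = 0.00265 in edgeR). Ifit3 rose by 1.15 (SE 0.261, adjusted p = 0.00436 in edgeR), in 4 of 5 mice and with overlapping ranges. Without mouse C, whose DMSO IC library had the highest level of Ifit1, Ifit2 and Rsad2, the calls of Ifit1 and Ifit3 ended, as that of Ifit3 did in mice C, D and E alone (edgeR adjusted p = 0.0679, from 0.000103 to 0.145 over its alternatives, and 0.064, from 0.0025 to 0.0684). Cmpk2, the neighbour of Rsad2, had a log2 fold change of 0.62 and did not pass, and Oasl1, at 0.81, passed with the block and not in the fit without it (edgeR adjusted p = 0.0397, from 0.0397 to 0.33 over its alternatives). Isg15 had a log2 fold change of 0.37 (SE 0.382) and did not pass. Ddx58 fell by 0.48 (SE 0.115, adjusted p = 0.00626 in edgeR) on the log2 scale and Dhx58 fell by 0.47 (SE 0.137, adjusted p = 0.0199 in edgeR). The call of Ddx58 ended without mouse D or E and that of Dhx58 without mouse B, D or E and in mice C, D and E alone (adjusted p from 1.92e-06 to 0.331 for Ddx58 and from 0.00486 to 0.165 for Dhx58 over their alternatives).

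Tor3a lies on chromosome 1 from 156653617 to 156674356. With DMSO it had 50.3, 36.6, 40.8, 40.1 and 43.4 CPM with Ova and 59.4, 61, 57.2, 61.4 and 61.6 CPM with IC. With iBET it had 45.4, 40.7, 39.9, 37.9 and 43.8 CPM with Ova and 58.9, 58.9, 52.6, 55.2 and 49.8 CPM with IC. Every IC library was above every Ova library of the same treatment. Tor3a rose by a log2 fold change of 0.51 with DMSO (SE 0.0746, adjusted p = 0.000102 in edgeR) and 0.41 with iBET (SE 0.0746, adjusted p = 0.00136 in edgeR). Slfn2 rose with DMSO by 0.44 (SE 0.117, adjusted p = 0.0115 in edgeR), a call that ended without mouse C or D (adjusted p from 3.79e-12 to 0.0543 over its alternatives). Of the genes that passed with the replicate block and not in the fit without it, Trim25 was higher with IC, and Slfn1, Mx1, Ifi35, Sp100, Ifih1, Herc6 and Parp12 were lower, with log2 fold changes between -0.57 (Slfn1) and -0.25 (Parp12).

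With iBET in both groups, 4 of 42 genes were higher and 2 lower with IC (background 5.19% and 6.63%). Rsad2 rose by a log2 fold change of 1.70 (SE 0.361, adjusted p = 0.00447 in edgeR), higher in 5 of 5 mice. The other genes that rose were Ifitm3, by 0.42 (SE 0.099, adjusted p = 0.00853 in edgeR), Tor3a and Trim25, by 0.40 (SE 0.109, adjusted p = 0.0214 in edgeR). Ddx58 and Ifi35 fell by 0.47 each (edgeR adjusted p = 0.0147 and 0.0341). In mice A and B alone 0 were higher and 0 lower (1.45% and 0.921% of all genes), and in mice C, D and E alone 5 were higher and 2 lower (4.52% and 4.95%). Without mouse D 3 were called in all, and without any 1 mouse 1 was lower. The call of Ifitm3 ended without mouse D (adjusted p from 2.1e-07 to 0.14 over its alternatives) and that of Ddx58 without mouse B or C (from 6.04e-05 to 0.0969). That of Trim25 ended without mouse B, C, D or E and with library size in place of TMM scaling (from 1.82e-07 to 0.356) and that of Ifi35 without mouse A, C, D or E (from 3.98e-07 to 0.13). Rsad2 and Tor3a passed without each mouse in turn. The IFIT genes did not pass with iBET. The log2 fold change between IC and Ova was 0.18 for Ifit1 (SE 0.532), 0.50 for Ifit2 (SE 0.311) and -0.07 for Ifit3 (SE 0.525). With the block 8 genes were higher and 5 lower (14.2% and 14.7% of all genes). With library size in place of TMM scaling 3 were higher and 4 lower (2.51% and 16.3%, or 313 and 2030 of all genes, against 647 and 827). The genes that passed with the block and not in the fit without it were Slfn2, Ifitm1, Ifitm2 and Bst2, which were higher, and Dhx58, Ifih1 and Herc6, which were lower.

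**Figure D3:**
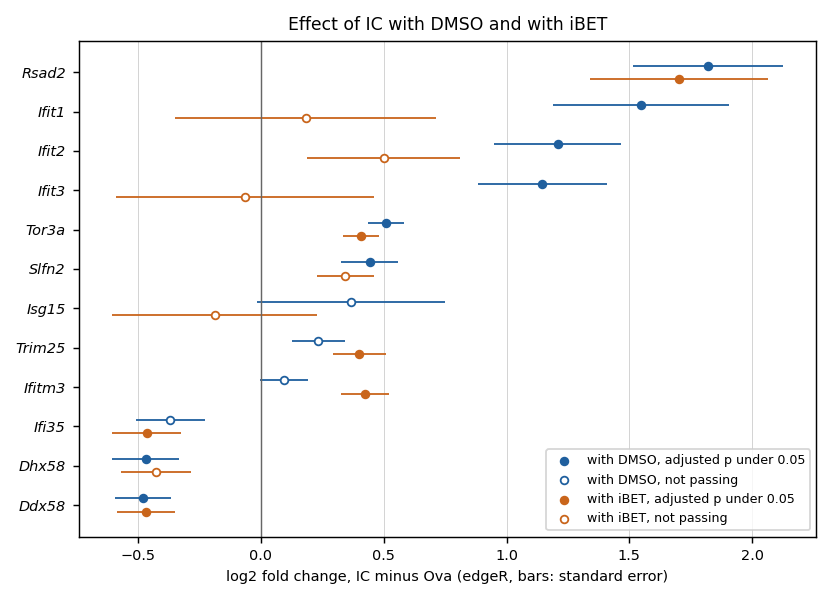
Log2 fold change between IC and Ova (horizontal axis) with DMSO in blue and with iBET in orange, for the genes that passed in either comparison and Isg15. Points are edgeR estimates with bars for the standard error and filled points passed an adjusted p under 0.05; Rsad2 and Tor3a lie on the same side and are filled in both, and the 3 IFIT genes are filled with DMSO alone.

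Whether the effect of IC differed between DMSO and iBET was tested as an interaction, and no member passed (0 of 42 in edgeR, also 0 with the block and in DESeq2). Of all genes 0.0401% passed (0.818% with the block), and 2 members, Ifitm3 and Ifit1, had an unadjusted p under 0.05. The difference was -1.37 for Ifit1 (SE 0.653, unadjusted p = 0.0498, edgeR adjusted p = 1), -1.21 for Ifit3 (SE 0.614) and -0.71 for Ifit2 (SE 0.406) on the log2 scale, below 0 in 4 of 5 mice for each. For Rsad2 it was -0.12 (SE 0.494), and for Ifitm3 0.33 (SE 0.139, unadjusted p = 0.0288, edgeR adjusted p = 1). The IFIT genes thus passed with DMSO and not with iBET, while the difference between these effects did not pass.

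To place the set in its pathway, 24 genes for interferons, their receptors, sensors and signalling proteins were examined, of which 22 were tested. With iBET, 11 were lower and 5 higher with Ova (background 28.9% and 27.7% of all genes), and 11 were lower and 4 higher with IC (29.0% and 27.1%). With the replicate block 13 were lower and 8 higher with Ova (35.2% and 33.5%), and 12 were lower and 6 higher with IC (35.4% and 32.6%). Of the interferons only Ifnb1 and Ifna4 were examined, with 3 reads of Ifnb1 over all libraries, each in a DMSO IC library, and none of Ifna4. The largest falls with Ova were those of the endosomal nucleic acid receptors Tlr7 and Tlr9, with Tlr7 from 70.9 ± 30.3 to 8.21 ± 4.28 CPM and Tlr9 from 14.2 ± 7.94 to 2.83 ± 1.42 CPM with Ova (SD, n = 5 each), log2 fold changes of -3.11 and -2.34. Tlr4, Tmem173, which encodes STING, and Tlr3 fell with Ova by log2 fold changes of -2.06, -1.75 and -1.68. The kinases Ikbke and Tyk2 fell with values of -0.77 and -0.58. Ifngr2, a chain of the receptor for type II interferon, Irf1 and the adaptor Myd88 fell with values of -0.55, -0.37 and -0.32. Of the factors that bind the ISRE, Irf9 went from 52.6 ± 7.21 to 37.1 ± 4.37 CPM with Ova (SD, n = 5 each), a log2 fold change of -0.505 (SE 0.106, adjusted p = 0.000447 in edgeR). Stat2, at 55.1 ± 19 and 72.4 ± 16.5 CPM, was higher with iBET in 5 of 5 mice and passed with the replicate block and not in the fit without it (log2 fold change 0.39, edgeR adjusted p = 0.205 without and 1.27e-05 with the block). Ifnar1, Jak1, Irf3, Mavs and Mb21d1, which encodes cGAS, rose with Ova by between 0.17 (Jak1) and 0.34 (Irf3). The receptor chain genes Ifnar2 and Ifngr1, the kinase gene Tbk1 and the feedback inhibitor gene Socs1 did not pass with Ova (log2 fold changes of -0.24, -0.14, 0.15 and 0.48), and with the block all 4 did (edgeR adjusted p = 0.000181, 0.0144, 0.0263 and 0.00321). Irf7, itself interferon-inducible, had 2.26 ± 0.968 CPM in DMSO Ova and 2.56 ± 0.418 CPM in iBET Ova (SD, n = 5 each) and did not pass.

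**Figure D4:**
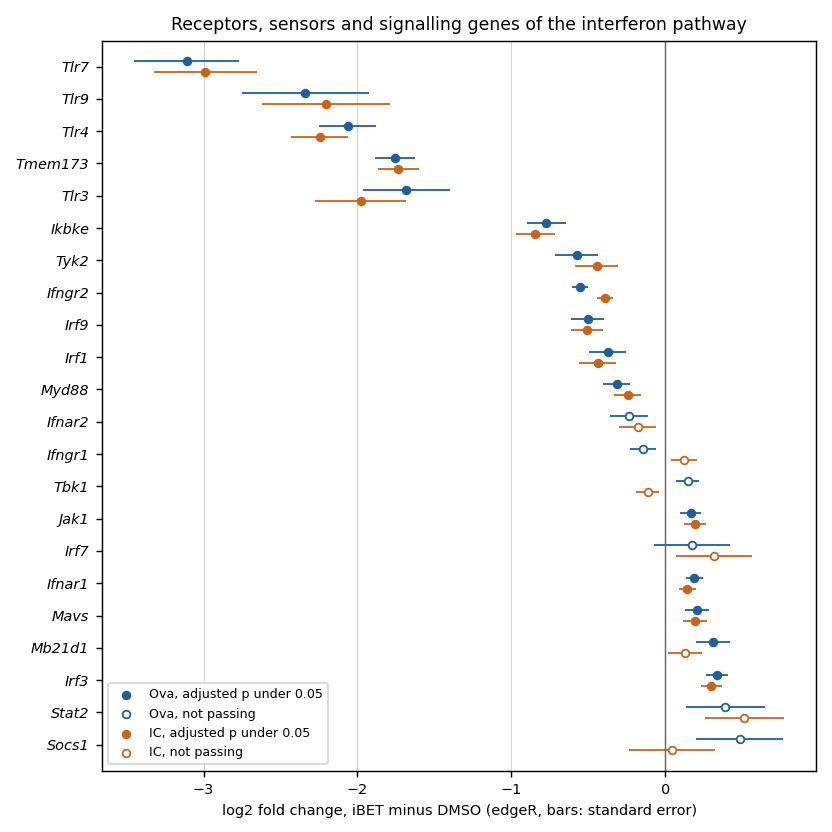
Log2 fold change between iBET and DMSO (horizontal axis) for the 22 tested pathway genes, with Ova in blue and IC in orange, bars for the standard error and filled points for an adjusted p under 0.05 in edgeR. Toll-like receptor genes and Tmem173 lie farthest to the left, with Tlr7 at -3.11 with Ova, and Irf9 lies at -0.505 with Ova.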

How the data were processed

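Bulk RNA-seq of BMDCs comprised 20 libraries in 4 groups of 5 mice. RNA libraries were prepared with a SMARTer Pico Input kit, and the labels state that cells were sorted into lysis buffer. The submitters' processing notes name CASAVA, FastQC, Trim Galore, HISAT2 and featureCounts with the mm10 build, without versions. The annotation, strand setting and treatment of multi-mapping reads are not given in the sources used here. The authors deposited raw counts per gene and a second table of those counts divided by size factors (unit signal). On testing, its factors equalled DESeq2's median of ratios, so it carries no further measurement. Samples were grouped by the treatment and stimulation labels, and the mouse label gave the replicate.

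Counts were tested with edgeR 4.0.16 in R 4.3.3 (filterByExpr, TMM, quasi-likelihood test over all 20 libraries and 12465 genes with the group as the factor, Benjamini-Hochberg adjustment over all genes, threshold 0.05). No p was adjusted over the list alone. The contrasts were iBET against DMSO within each stimulus, IC against Ova within each treatment, and their interaction. CPM were scaled by TMM, and RPKM used exon lengths of GENCODE M21, whose coordinates are GRCm38. Ratios within a mouse used 0.05 CPM as an added constant. Libraries with the same letter came from the same mouse, so the letters pair the samples. Over 30 such pairs, deviations from the group means correlated at 0.524 on average (lowest 0.307), and between different mice and groups at -0.127. The main test did not model this pairing and the replicate block does, so a result given as not passing can pass with the block. Alternatives were the mouse as a replicate block, DESeq2 1.42.0, other scalings, surrogate variables (sva 3.50.0, 3 variables), no filter, the groups compared only, limma 3.58.1 on log2(value + 1) of the second deposited table, leaving out each mouse, mice A and B or C, D and E only, and a log2 fold change of at least 1. Scripts were tested on simulated data. Totals of 16447491 to 29245150 counts (median 21764663) make genes of a few reads imprecise, and bounds from read numbers cover counting error only. No pair of libraries within a group agreed within sampling noise (chi-square per degree of freedom at least 12.82 over 40 pairs).

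Members, gene lists and tests were chosen with earlier results of these data known. All 44 members are named. CPM in every library is given for Isg15, Ifit1 and the members past the threshold among the 3 largest rises or falls of a pairwise contrast; others are given by group values or by fold changes within roles. Of the pathway list as first drawn up, a gene is not reported here. Promoter sequences come from RefSeq (GRCm38.p6). Figures were drawn with matplotlib 3.10.9.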

Additional observations from a re-analysis of the deposited data

Results flagged for a closer look

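In each group of 5 libraries the highest or lowest library of each member was checked for its distance from the others. A library far from the rest was found in 7 of 176 groups. Chance gives about 1 in 20, so such libraries were no more frequent than by chance. Of these libraries 4 were from mouse C. Ifit2 had 9.57 CPM in mouse C with DMSO and IC, where the next highest library had 5.08 CPM. Mouse C was also below the others in 3 cases, with Ifih1 at 26.5 CPM and Samd9l at 59.2 CPM with DMSO and Ova (next 32.6 and 72.8 CPM) and Parp9 at 24.3 CPM with iBET and Ova (next 27.3 CPM). Oas1a had 37.9 CPM in mouse A with DMSO and IC (next 29.5 CPM), Ifitm2 had 55.9 CPM in mouse D with DMSO and IC (next 45.9 CPM), and Sp100 had 32.2 CPM in mouse B with DMSO and IC (next 37.5 CPM). Without mouse C the difference of Ifit2 between IC and Ova with DMSO had a log2 fold change of 0.86 (edgeR adjusted p = 0.0421, from 1.29e-05 to 0.111 over its alternatives), and the falls of Ifih1, Samd9l and Parp9 with iBET passed under either stimulus. The cause of these distances was not tested.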

How the results depend on the processing

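Of 127 results named for single genes, 75 passed the test, and none of these 75 changed sign under any alternative run. Over 2022 recomputed values 1828 kept their direction and side of the threshold, 63 no longer passed, 102 newly passed and 29 changed sign, all 29 in results that had not passed. With the mouse as a replicate block no call among the 127 was lost and 24 member results newly passed. The count of members lower with iBET ran from 26 to 33 for Ova and from 27 to 31 for IC under every alternative but a log2 fold change of at least 1, which left 21 each. Genes of a few reads, such as Rtp4, Ifit3 and Oasl1 with iBET, are limited by depth. The causes of the changes below were not tested.

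The count of members higher with iBET and Ova (1) was 4 with the block in edgeR and in DESeq2, 5 with surrogate variables, 0 with library size only, 4 in mice A and B, 2 in mice C, D and E, 0 with a log2 fold change of at least 1 and 0 to 1 on leaving out a mouse (0 without mouse A). With IC (1) it was 3 with the block in edgeR, in DESeq2 and with surrogate variables, 3 in mice C, D and E, 0 with a log2 fold change of at least 1 and 0 to 1 on leaving out a mouse (0 without mouse C). Between IC and Ova with DMSO the members called (8, of which 6 higher and 2 lower) were 17 (9 lower) with the block, 16 (9 lower) with the block in DESeq2, 13 (7 lower) with library size only and 15 (8 lower) with surrogate variables. They were 1 (1 higher, 0 lower) in mice A and B and 4 (0 lower) with a log2 fold change of at least 1, and 5 were lower in mice C, D and E. On leaving out a mouse, 5 to 8 were called, 3 to 6 higher and 0 to 3 lower. With iBET in both groups (6 called, 4 higher and 2 lower) the counts were 13 (8 and 5) with the block, 14 (8 and 6) with the block in DESeq2, 13 (7 and 6) with surrogate variables, 0 (0 and 0) in mice A and B and 1 (1 and 0) with a log2 fold change of at least 1, and 4 were lower with library size only. On leaving out a mouse, 3 to 6 were called, 2 to 5 higher and 1 lower each time.

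The values that changed sign were as follows, as log2 fold changes. For Ifit3 between IC and Ova with iBET (-0.07) the value was 0.0149 with surrogate variables, 0.42 in mice A and B and -0.30 to 0.24 on leaving out a mouse. Isg15 had 0.18 between iBET and DMSO with Ova in mice A and B, and -0.0262 to 0.788 between IC and Ova with DMSO on leaving out a mouse. The interaction of Rsad2 was 0.20 in mice C, D and E and -0.87 to 0.30 on leaving out a mouse. For iBET with Ova, Ifitm2 had 0.0762 in mice C, D and E and -0.2134 to 0.0104 on leaving out a mouse, and Tor3a 0.0172 in mice C, D and E and -0.0353 to 0.0120 on leaving out a mouse. For iBET with IC, Ifitm2 had 0.0049 in DESeq2, 0.0055 with DESeq2 size factors, 0.0169 without the filter, 0.0053 with the groups compared only, 0.23 in mice A and B and -0.0770 to 0.0524 on leaving out a mouse. Ifitm3 had 0.12 in mice A and B and -0.1176 to 0.0046 on leaving out a mouse, Bst2 0.0937 in mice A and B, and Eif2ak2 -0.0031 with library size only. Slfn2 had -0.0315 with library size only, -0.0235 in mice C, D and E and -0.0228 to 0.0572 on leaving out a mouse. Ifitm3 between IC and Ova with DMSO had -0.0128 with library size only and -0.0420 in mice A and B.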

Other observations

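Mice differed within every group for a few members. Mice A and B were both below mice C, D and E in all 4 groups for Sp100, Mx1 and Ifitm1, which is 3 of 42 tested members (7.14%) against 7.90% of all genes tested, and both above them for Slfn2 (2.38% of the members against 7.24% of all genes). This order was read from the data, and no label names a reason for it.

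Transcripts of paralogs outside the set were present in these cells, with 7495 reads of Oas1g, 10573 of Trim30d, 6384 of Slfn9 and 123 of Ifit3b over the 20 libraries. Levels of Oas1a, Trim30a, the Schlafen genes and Ifit3 are uncertain to the extent that reads match these copies as well.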
